A study of Mus musculus with 2 samples.

Results

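The Mir193 and Mir365 genes form a pair of paralogous microRNA clusters, each with 1 Mir193 gene and 1 Mir365 gene. They were taken by symbol from the GENCODE M21 annotation, and all 4 of them, Mir193a, Mir193b, Mir365-1 and Mir365-2, were found among the 2202 microRNA genes measured. Their levels come from gastrocnemius, a calf muscle, of male B6CASTF1/J mice, a cross of C57BL/6J and CAST/EiJ, aged 18 to 20 months. The mice form 1 group with 2 small RNA libraries, replicates 1 and 2, made from separate biosamples under the same donor identifier, with inserts under 30 nt. No treatment, genotype or age contrast was part of the design. The labels number the libraries as biological replicates 1 and 2, each with technical replicate number 1. Whether the biosamples were separate animals is not given in the sources used here. P-values therefore measure only differences between these libraries, which may be technical.

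A microRNA gene is transcribed as a precursor whose hairpin is cut into a 5p and a 3p arm of about the length of the insert. The arm that is kept guides an Argonaute protein to messenger RNAs, mainly through its seed, bases 2 to 8 counted from the 5′ end, and lowers their output. The chromosome 16 cluster, Mir193b and Mir365-1, is known for its high expression in brown fat, where it was reported to favour the brown fat fate of precursor cells over the muscle fate, although mice without it still form brown fat. Mir193a is best known as a growth-restraining microRNA gene in blood and tumour cells, and miR-365 has been studied in fat and cartilage cells.

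The mature arms are shown because they decide which of the 4 genes a short read can be assigned to. Sequences are from RefSeq on GRCm38.p6, matched by symbol for 4 of 4 genes, with the seed in capitals.
miR-193a-3p: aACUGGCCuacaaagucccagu
miR-193b-3p: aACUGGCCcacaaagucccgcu
miR-193a-5p: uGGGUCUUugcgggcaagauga
miR-193b-5p: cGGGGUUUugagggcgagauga
miR-365-3p: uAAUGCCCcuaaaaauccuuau
miR-365-1-5p: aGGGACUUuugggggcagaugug
miR-365-2-5p: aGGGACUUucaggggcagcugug

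The 3p arms of Mir193a and Mir193b have the same seed, and no other mouse microRNA gene in the RefSeq table has it. They are the same at 19 of 22 positions. With the miR-193a base first and positions counted from 1 at the 5′ end, they differ by U9C, A20G and G21C, all outside the seed. Their 5p arms differ at 5 of 22 positions, by U1C, U5G, C6U, C11A and A16G, of which U5G and C6U lie in the seed. The 5p arms therefore do not form a seed family, whereas the 3p arms do.

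The Mir365 genes are closer to each other. Their 3p arm, miR-365-3p, is the same in all 22 bases, so its name has no gene number. The 5p arms share a seed and 20 of 23 positions, and differ from miR-365-1-5p to miR-365-2-5p by U10C, G11A and A19C. Neither seed of the Mir365 genes occurs in another mouse microRNA gene of the table.

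The hairpins show how far this likeness reaches beyond the arms, which are in capitals here.
Mir193a: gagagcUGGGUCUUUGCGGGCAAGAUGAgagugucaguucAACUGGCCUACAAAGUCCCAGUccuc
Mir193b: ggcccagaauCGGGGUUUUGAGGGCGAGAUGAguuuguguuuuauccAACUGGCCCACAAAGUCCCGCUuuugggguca
Mir365-1: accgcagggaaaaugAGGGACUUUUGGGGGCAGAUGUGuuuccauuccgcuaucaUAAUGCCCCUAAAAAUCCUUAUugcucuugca
Mir365-2: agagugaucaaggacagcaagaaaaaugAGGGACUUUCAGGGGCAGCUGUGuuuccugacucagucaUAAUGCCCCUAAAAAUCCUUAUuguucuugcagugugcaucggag

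The longest stretch common to the Mir193 hairpins has 10 bases, so a read of a whole arm belongs to either Mir193a or Mir193b. Among the windows of 20 bases in their hairpins, 47 of 47 in Mir193a and 60 of 60 in Mir193b occur in no other of the 2202 microRNA genes. The longest stretch common to the Mir365 hairpins has 27 bases and holds the whole 3p arm, with 3 bases before it and 2 after it.
Mir365-1 and Mir365-2: ucaUAAUGCCCCUAAAAAUCCUUAUug
A read that lies within this stretch matches both Mir365 genes, whereas the 5p arm of each gene matches that gene alone. Of the windows of 20 bases, 8 of 68 in Mir365-1 and 8 of 93 in Mir365-2 are shared. Multimapping reads, which match several places, are not part of the gene counts and made up 73.8% of the reads of replicate 1 and 70.2% of those of replicate 2. How many of them were miR-365-3p was not measured. The Mir365 levels given here leave out reads within the shared stretch, and so are uncertain as levels of the genes.

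The clusters lie on the plus strand of the mm10 assembly, which the files use. Mir193a (ENSMUSG00000065395.1) is at chr11:79711969-79712034 and Mir365-2 (ENSMUSG00000065489.1) at chr11:79726400-79726511, with 14365 bases between them. Both are intergenic in M21. The nearest protein-coding gene before them is Rab11fip4, which ends 13.9 kb before Mir193a. Mir193b (ENSMUSG00000076972.2) is at chr16:13449523-13449601 and Mir365-1 (ENSMUSG00000065449.1) at chr16:13453840-13453926, with 4238 bases between them. Both lie in an intron of Gm15738, an antisense RNA gene on the other strand, and 32.0 kb or more after the end of Mrtfb, a gene of a transcriptional cofactor of serum response factor. On the strand opposite to the microRNA genes, Mir193a had 1 count in replicate 1 and 0 in replicate 2, and the other 3 genes had 0 in both, so their counts hardly depend on the choice of strand.

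The hairpins differ in length from 66 bases in Mir193a to 112 bases in Mir365-2, with 79 in Mir193b and 87 in Mir365-1. RNAfold gave minimum free energies of -30.4 kcal/mol for Mir193a, -34.1 for Mir193b, -34.5 for Mir365-1 and -39.7 for Mir365-2. Per base the order turned around, from -0.461 kcal/mol in Mir193a to -0.354 in Mir365-2. The GC content was 50.0% in miR-193a-3p and 59.1% in miR-193b-3p, against 31.8% in miR-365-3p.

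Mir193b was the most abundant of the 4 genes and the 1 that differed most between the libraries in absolute log2 ratio. Mir193a followed at a level that differed little between the libraries. The Mir365 genes were far lower in assigned counts, which leave out reads within their shared stretch. Depth was 4442692 counts assigned to microRNA genes in replicate 1 and 2156222 in replicate 2, which were 15.7% and 19.8% of all reads in the tables. Levels are in CPM, counts scaled to the same total of assigned counts in each library, and a count of 0 would allow up to 0.675 CPM in replicate 1 and 1.39 CPM in replicate 2. Intervals of levels are Wilson 95% intervals, and all intervals and limits cover counting error only, since reads come from PCR without molecular identifiers.

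Mir193b had 10223 counts in replicate 1 and 1637 in replicate 2. The levels were 2301 CPM (2257 to 2346) and 759 CPM (723 to 797), so replicate 1 was the higher library and the intervals did not overlap. The mean was 1530 ± 1090 CPM (SD, n = 2), and Mir193b ranked 44th of 2202 genes in replicate 1 and 56th in replicate 2.

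Mir193a had 2652 counts in replicate 1 and 1148 in replicate 2, or 597 CPM (575 to 620) and 532 CPM (503 to 564). Both libraries lay close together, at a mean of 565 ± 45.6 CPM (SD, n = 2). It ranked 66th and 69th. The summed level of both Mir193 genes, reads of either arm included, was 2898 CPM and 1292 CPM, which made up 0.290% of the assigned counts of replicate 1 and 0.129% of those of replicate 2.

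Mir365-2 had 113 and 40 counts, or 25.4 CPM (21.2 to 30.6) in replicate 1 and 18.6 CPM (13.6 to 25.3) in replicate 2. The intervals overlapped, and the mean was 22.0 ± 4.87 CPM (SD, n = 2). Mir365-1 had 17 and 19 counts, or 3.83 CPM (2.39 to 6.13) and 8.81 CPM (5.64 to 13.8), so here replicate 2 was the higher library, with a slight overlap of the intervals. Its mean was 6.32 ± 3.53 CPM. The ranks were 196th and 211th for Mir365-2 and 311th and 256th for Mir365-1, within the 324 genes that reached 2 CPM in both libraries.

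**Figure D1:**
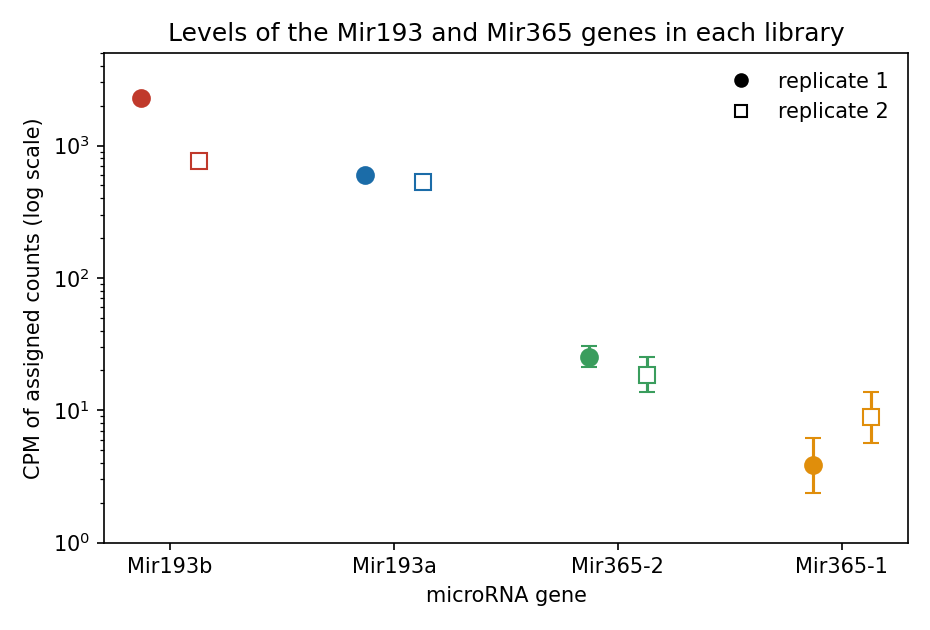
CPM of assigned counts (vertical axis, log scale) of each gene (horizontal axis) in replicate 1 (filled circles) and replicate 2 (open squares), with Wilson 95% intervals of the counts as bars. Mir193b is at 2301 CPM in replicate 1 and 759 CPM in replicate 2, Mir193a at 597 and 532 CPM, and both Mir365 genes lie below 30 CPM or, for Mir365-1, below 10 CPM.

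The order Mir193b, Mir193a, Mir365-2, Mir365-1 was the same in both libraries. The 4 genes did not overlap each other over the libraries, but the means of Mir193b and Mir193a differed by less than the SD of Mir193b. A read is taken here as a whole arm, and the arms of the 4 genes have 22 or 23 bases. CPM were therefore not corrected for arm length. Whole miR-365-3p reads match both Mir365 genes and are not in their counts. Divided by the length of the annotated gene, the means were 1937 CPM per 100 bases for Mir193b, 856 for Mir193a, 19.6 for Mir365-2 and 7.26 for Mir365-1, in the same order.

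Within a library the depth cancels, so the members can be set against each other directly. Mir193b had 3.85 times the counts of Mir193a in replicate 1 (exact 95% interval 3.69 to 4.02) and 1.43 times in replicate 2 (1.32 to 1.54). Its share of the Mir193 counts was 79.4% and 58.8%. The log2 ratio of Mir193b over Mir193a was thus lower in replicate 2 by a log2 difference of -1.43 (exact conditional 95% interval -1.56 to -1.31), or 2.70-fold. So the balance of the genes that carry the same 3p seed differed between these libraries by more than counting error, whatever the scaling.

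Mir365-2 had 6.65 times the counts of Mir365-1 in replicate 1 (3.97 to 11.8) and 2.11 times in replicate 2 (1.19 to 3.85). The change was a log2 difference of -1.65, with a wide interval of -2.83 to -0.48. In the assigned counts the chromosome 16 gene was thus ahead for Mir193 and the chromosome 11 gene for Mir365. Reads within the shared Mir365 stretch, which holds miR-365-3p, are in neither count. The Mir365 counts therefore do not show which copy gave more of that arm. Summed, the Mir365 genes had 29.3 and 27.4 CPM in replicates 1 and 2, a mean of 28.3 ± 1.34 CPM (SD, n = 2).

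Within the chromosome 11 cluster, Mir193a had 23.5 times the counts of Mir365-2 in replicate 1 (19.4 to 28.6) and 28.7 times in replicate 2 (20.9 to 40.4). The log2 difference between the libraries was 0.29, and its interval of -0.25 to 0.86 includes 0. Within the chromosome 16 cluster, Mir193b had 601 times the counts of Mir365-1 in replicate 1 (375 to 1033) and 86.2 times in replicate 2 (55.0 to 143). Here the log2 difference was -2.80 (-3.84 to -1.78). In assigned counts the neighbours on chromosome 16 therefore did not keep their ratio between the libraries. For those on chromosome 11 no change was detectable at this depth. Reads within the shared Mir365 stretch are missing from these counts, so the ratios set whole Mir193 genes against part of the Mir365 genes.

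Replicate 2 was set against replicate 1 by an exact two-sided binomial test of the counts of every gene with 10 or more counts, given library sizes scaled by edgeR's TMM, with Benjamini-Hochberg adjustment over all genes tested. Log2 ratios use CPM + 1, while their intervals and fold differences use the counts without the added 1. All 4 members were among the 380 genes tested, and 2 of them passed an adjusted p of 0.05, 1 in each direction. Over all 380 genes 61.8% passed, 30.3% higher in replicate 2 and 31.6% higher in replicate 1, so the share of members called is near the background. The test compares these libraries and takes in counting error alone. In these bulk samples, fewer cells of a type and less RNA per cell cannot be told apart.

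Mir193b was lower in replicate 2. Its log2 ratio was -1.51 (exact 95% counting interval -1.58 to -1.43), a 2.84-fold difference, with an adjusted p that double precision gives as 0. Of the 380 genes tested 35 had a lower log2 ratio and 60 a larger absolute one, and the SD of log2 ratios was 1.13 over the 228 genes with 100 or more counts. The difference is therefore large against counting error and not unusual among genes of these libraries. Mir193b stayed between -1.65 and -1.44 under the 7 other settings run.

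Mir193a had a log2 ratio of -0.07 (-0.17 to 0.03; adjusted p = 0.223, exact binomial test), and 352 of 380 genes had a larger absolute ratio. Its call depended on the scaling. The log2 ratio was -0.11 with DESeq2's size factors (adjusted p = 0.0495), -0.16 with plain totals (adjusted p = 0.00228) and 0.022 with counts of replicate 1 drawn down to the total of replicate 2 (adjusted p = 0.793), and the adjusted p ranged from 7e-05 to 0.793 over the 7 settings.

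Mir365-1 went the other way, with more in replicate 2. Its log2 ratio was 1.10 (0.27 to 2.33; adjusted p = 0.0189, exact binomial test). Without the added 1 CPM, as in the interval, the difference was 2.46-fold. The call rests on 17 and 19 counts. With no filter on low counts the log2 ratio was 0.98 and the adjusted p 0.0557, the highest of the 7 settings, whose lowest was 0.0189. Mir365-2 had a log2 ratio of -0.35 (-0.92 to 0.17; adjusted p = 0.258, exact binomial test). It did not pass under any of the 7 settings, where the adjusted p ranged from 0.143 to 0.258. Settings that changed only the added CPM cannot alter p, because the binomial test uses counts alone. The ends of 0.0189 for Mir365-1 and 0.258 for Mir365-2 therefore repeat the main exact binomial test.

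**Figure D2:**
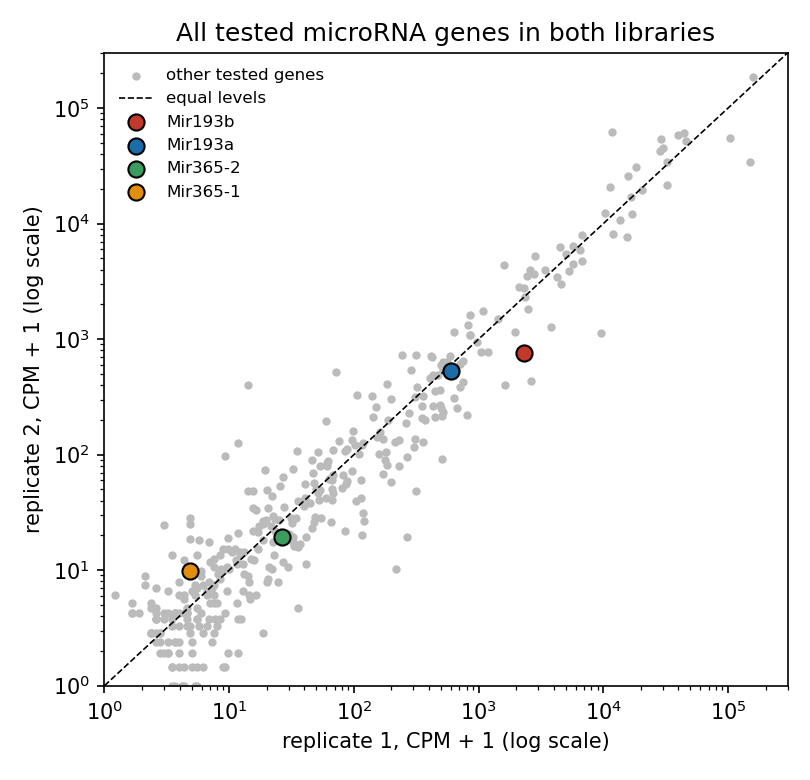
CPM + 1 of the 380 tested genes in replicate 1 (horizontal axis) and replicate 2 (vertical axis), both on log scales, with a dashed line at equal levels. Mir193a (blue) lies near the line, Mir193b (red) lies below it and Mir365-1 (orange), at 3.83 and 8.81 CPM, lies above it.

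**Figure D3:**
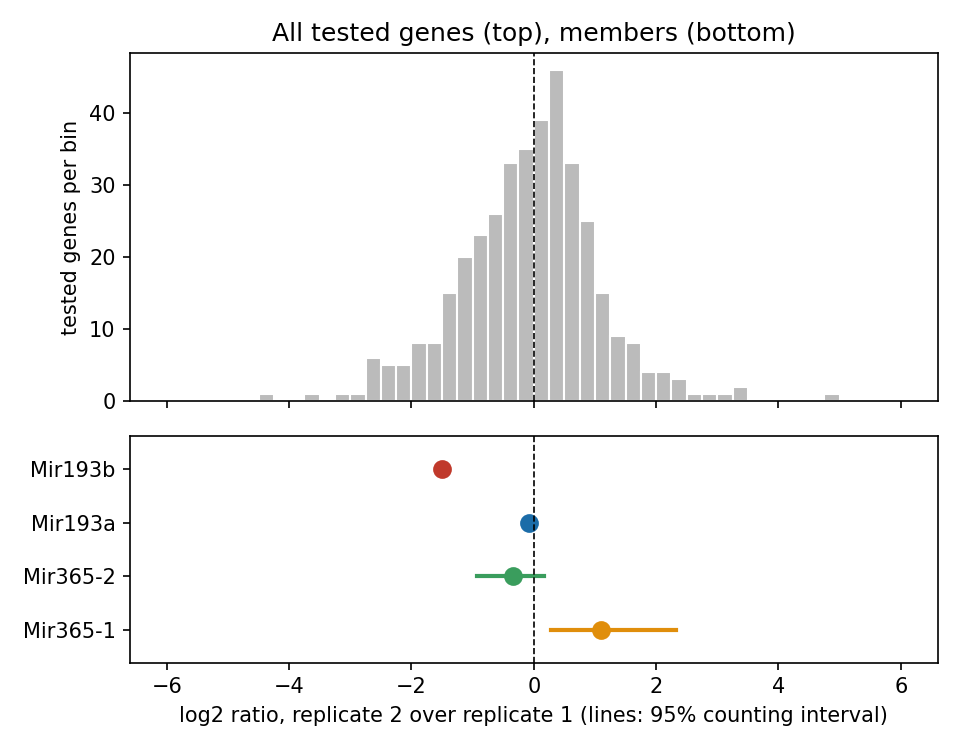
Log2 ratios of replicate 2 over replicate 1 (horizontal axis), as a histogram of all 380 tested genes (top, genes per bin) and for the 4 members with exact 95% counting intervals (bottom). The ratios use CPM + 1, and the intervals use the counts alone. The interval of Mir193b lies wholly below 0, that of Mir365-1 wholly above 0, and those of Mir193a and Mir365-2 include 0.

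The tissue markers gave the following levels beside the lower Mir193b of replicate 2. All 8 skeletal muscle microRNA genes had counts, with summed levels of 16379 and 65593 CPM in replicates 1 and 2. Mir206 alone made up 11810 and 61540 CPM of these sums. Of these genes 2 were higher in replicate 2 and 4 in replicate 1, and 2 did not pass. Over all 380 genes tested, 30.3% were higher in replicate 2 and 31.6% in replicate 1. Mir1a and Mir133a have numbered copies here, and reads that match several copies are not part of the counts. How many such reads there were was not measured. Lower in replicate 2, like Mir193b, were the endothelial gene Mir126a (104418 and 55386 CPM) and the sums of the 2 erythroid genes (777 and 109 CPM) and the 6 epithelial genes (63.9 and 14.8 CPM). The 2 smooth muscle genes had 48845 and 56840 CPM, the 4 leukocyte genes summed to 2285 and 3632 CPM, and the liver gene Mir122 13.3 and 396 CPM. Among the leukocyte genes, Mir150 and Mir155 were higher in replicate 2, with log2 ratios of 0.80 and 1.02, and Mir223 and Mir142 were higher in replicate 1, with log2 ratios of -0.23 and -0.69. Of the 6 neuronal genes 5 had no count in either library, and the sum was 0 and 2.78 CPM. The part of these cell types in the Mir193b difference was not tested.

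The genes whose levels lay nearest to each member were found by Euclidean distance in log2(CPM + 1) over the 2 libraries. Nearest to Mir193b was Mir92-1, of the Mir17 cluster, at a distance of 0.64, with 1974 and 1150 CPM in replicates 1 and 2. Mir15a had 2650 and 437 CPM (0.82) and Mir1839 1180 and 768 CPM (0.96), so the genes nearest to Mir193b lay further off than those of the other members. Nearest to Mir193a were Mir872, Mir181b-2 and Mir185, at distances of 0.14, 0.22 and 0.28. Mir872 had 573 and 488 CPM. For Mir365-2 they were Mir188, Mir134 and Mir877 (0.20, 0.24 and 0.28), and for Mir365-1 Mir323, Mir7068 and Mir212 (0.13, 0.30 and 0.33). With 2 libraries such likeness describes levels only.

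Mir365-1 was then set beside other genes with a numbered copy in their symbol, each with its nearest unnumbered microRNA gene within 10 kb on the strand. Of 71 other such genes, 17 were in a pair with 100 CPM or more in either gene, and in 13 of the 17 the unnumbered gene had the higher mean. Pairs entered through their higher gene, which favours large gaps, so these counts are a description only. Mir365-1 had a mean of 6.32 CPM beside 1530 CPM for Mir193b, a log2 ratio of 7.71 on the CPM + 1 scale, and the median over the 17 other pairs was 6.36. A larger ratio was found in 3 pairs. Among these was Mir29b-1, whose mature 3p arm is also that of Mir29b-2, with a mean of 50.2 CPM beside 14538 CPM for Mir29a. On the other side, Mir16-1 had 462 CPM beside 1544 CPM for Mir15a, and Mir16-2 had 294 CPM beside 286 CPM for Mir15b. CPM are per gene here, not per length, and leave out multimapping reads, such as those within the shared Mir365 stretch. Mir365-2 lies more than 10 kb from Mir193a and was not among these genes.

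**Figure D4:**
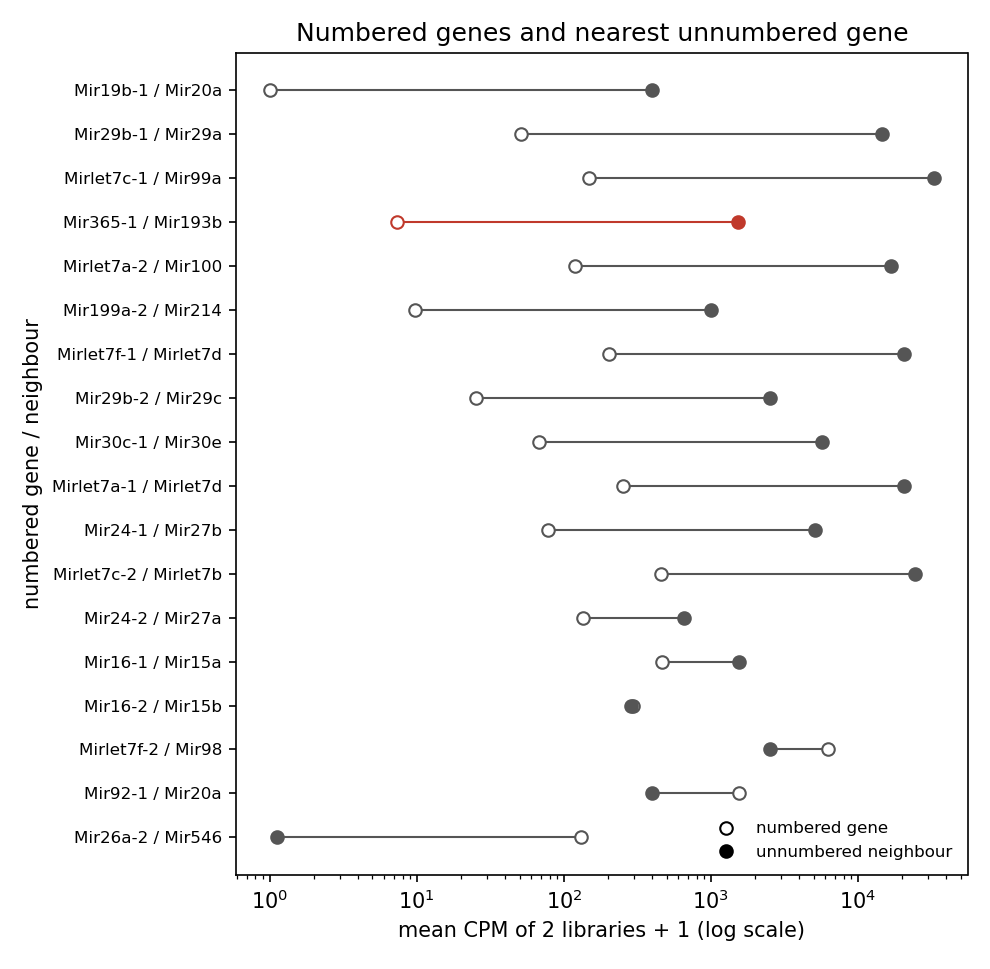
Mean CPM + 1 of the 2 libraries (horizontal axis, log scale) for 18 numbered microRNA genes (open circles) and their nearest unnumbered gene within 10 kb (filled circles), ordered by the ratio. Mir365-1 beside Mir193b (red) is the fourth from the top, and in 14 of the 18 pairs the filled circle lies to the right.

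Other microRNA genes linked to brown or beige fat, or to muscle formation, gave a mixed picture between the libraries. Of 13 genes linked to more brown or beige fat, 8 were higher in replicate 2, while 3 were higher in replicate 1 and the test left 2 uncalled. Over all 380 genes tested, 30.3% were higher in replicate 2 and 31.6% in replicate 1. The 8 thus lie above the background and the 3 somewhat below it. The median log2 ratio of the 13 was 0.33, against 0.02 over the 380. Mir378a, in an intron of Ppargc1b, led them at 159985 and 185734 CPM (log2 ratio 0.31). Mir196a-2, of a Hox cluster, had 3380 and 3971 CPM (0.33), Mir30c-2 415 and 711 CPM (0.87) and Mir328 2467 and 1832 CPM (-0.34). Mir193b, at 2301 CPM in replicate 1, was thus near Mir328 in that library.

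Of 11 genes linked to less brown or beige fat, 3 were higher in replicate 2, while 5 were higher in replicate 1 and the test left 3 uncalled. The shares over all genes tested were the same 30.3% and 31.6%, so the 3 lie near the background and the 5 above it. The median log2 ratio of the 11 was -0.19. None of the lists was tested as a set. Mir27b had 5740 and 4446 CPM (log2 ratio -0.28), Mir27a 706 and 603 CPM (-0.13) and Mir93 1434 and 1500 CPM (0.16, and not past the threshold with plain totals or no filter). Mir155, a microRNA gene of activated leukocytes that also restrains brown fat, had 853 and 1625 CPM (1.02). Of 20 myogenic genes 10 were higher in replicate 1 and 6 in replicate 2, and the test left 4 uncalled. The shares over all genes were again 30.3% and 31.6%, so the 6 lie near the background and the 10 above it. Mir133a-1, Mir133a-2 and Mir133b are in this list and among the 11 above, so these lists are not separate observations. Here the median was -0.39. Reads that match several numbered copies are again not part of these counts. Mir206, the skeletal muscle gene, had 11810 and 61540 CPM (2.47), Mir322 2442 and 3543 CPM (0.63), Mir486 4241 and 3417 CPM (-0.22) and Mir29c 3796 and 1273 CPM (-1.48). The last of these was close to Mir193b in its ratio.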

How the data were processed

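For each library the authors deposited a table of raw read counts over microRNA genes, made on mm10 with GENCODE M21 per the readmes. No source used here names the aligner, trimming or counter. Of its 3 count columns (unstranded, sense and antisense, judged by the values), the sense column was used, and reads of no gene were kept out of totals. All 2202 identifiers matched M21. The 4 members, the lists, the tests and the other settings were chosen with earlier results of these data known.

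CPM were taken over assigned counts. Genes with 10 or more summed counts were scaled with edgeR's TMM, which moved log2 ratios by 0.0932 against plain totals, and tested with an exact binomial test. The standard quasi-likelihood test needs a contrast of groups and was not used. Named genes were the members, the 3 nearest genes to each, up to 4 genes of highest mean CPM per list and numbered genes beside unnumbered ones with 100 CPM or more. Other settings were counts without strand, DESeq2 size factors, plain totals, pseudocounts of 0.1 and 5 CPM, no filter, thinning, other denominators and single libraries. In simulated counts of 384 genes for this comparison, 75.0% of 56 genes changed 2-fold and 80.4% of 51 changed 4-fold were called. Of 277 unchanged genes 0 were called. The simulation drew Poisson counting error alone, which the test assumes, so it does not show how the test fares with other differences between libraries. Tools were R 4.3.3, edgeR 4.0.16, DESeq2 1.42.0, RNAfold 2.7.2, Python 3.11.15, numpy 2.4.6, pandas 2.3.3, scipy 1.17.1, statsmodels 0.14.6 and matplotlib 3.10.9.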

Additional observations from a re-analysis of the deposited data

How the results depend on the processing

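Of 186 recomputed values 169 kept their direction and side of the threshold, or stayed within the spread of the libraries. A changed pseudocount cannot alter the sign or the call of a single gene, because the test uses counts alone. Leaving out either library cannot move a mean of the 2 libraries by more than their SD. The 169 include such values, so their number overstates how much was put to the test. The log2 ratio of Mir193a was -0.11 with DESeq2's size factors, -0.16 with plain totals and -0.22 with no filter, all past the threshold, and 0.022 with replicate 1 thinned. Without the filter TMM rests on many genes near 0 and moved log2 ratios by -0.146 relative to the filtered fit. Mir365-1 was at 0.98 with no filter, short of the threshold. Mir93 (2 settings) and Mir27a (replicate 1 thinned) also fell short. Mean CPM over all reads of the tables were 99.5 for Mir193a, 255 for Mir193b, 1.17 for Mir365-1 and 3.83 for Mir365-2. Mir193a was at 785 CPM and Mir365-2 at 30.6 CPM with counts without strand, whose totals are smaller, and Mir193a was at 682 CPM without the most abundant gene and at 856 CPM per 100 bases. Per base of the gene, the mean log2 ratio of Mir193a over Mir365-2 was 5.46. The number of genes called ranged from 211 to 237. No paired analysis was possible because there is 1 group. Depth limits Mir365-1 most, at 17 and 19 counts.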

Other observations

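Of the 2202 microRNA genes, 1084 share a stretch of 20 bases with another microRNA gene, as Mir365-1 and Mir365-2 do, and 1118 do not, as Mir193a and Mir193b. Of the former 81 (7.47%) and of the latter 243 (21.7%) reached 2 CPM in both libraries. Among the genes that did, the median of the mean CPM was 72.8 in the former and 45.3 in the latter.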
